A study of Mus musculus with 12 samples.

Results

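NF-kappaB is a family of dimeric transcription factors that inhibitor proteins of the IkappaB class hold in the cytoplasm of a resting cell. Signals from Toll-like receptors, the TNF receptor and the IL-1 receptor lead to breakdown of these inhibitors, and the freed dimers bind kappaB sites near genes for cytokines, chemokines, adhesion molecules and their own inhibitors. In liver this program is known from Kupffer cells, recruited leukocytes, endothelium and hepatocytes, and it includes a built-in brake, because IkappaB alpha (Nfkbia) and the ubiquitin-editing enzyme Tnfaip3 are themselves targets. The genes described here are 39 named members of this program: 10 cytokines and their receptors, 7 chemokines, 7 NF-kappaB subunits and inhibitors, 7 feedback and signalling genes, 4 adhesion genes and 4 enzyme and inflammasome genes. They were chosen by name with earlier results of these data known, so shares of members set beside all genes below are only descriptions. Their probes were found through the RefSeq transcript that each probe is designed against. All 39 had a probe, among 22911 gene symbols named on the array in this way, and 35 were bright enough to be tested among 26397 genes and unnamed transcripts.

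The study measured liver RNA on 1-colour Agilent arrays in 4 groups of 3 arrays from male mice aged 7 weeks. The groups were Akp3-/- mice given IIAEK (KO IIAEK), Akp3-/- mice given vehicle (KO vehicle), wild-type mice given IIAEK (WT IIAEK) and wild-type mice given vehicle (WT vehicle). IIAEK is a cholesterol-lowering pentapeptide, per the labels, given by mouth at 600 mg/kg per day for 14 days, and the vehicle was carboxymethylcellulose at 5 g/L. The labels conflict on the duration: the source field of the IIAEK samples has 14 weeks, and their titles and treatment text have the 14 days used here. Livers were collected after a fast of 8 h in every group. Akp3 encodes an alkaline phosphatase of the intestinal brush border, and its loss could not be checked in these livers: the probes of Akp3 and Alppl2 were well above background on 0 of 12 arrays, and that of Alpi on 1 of 12. The strain, and whether the deletion is limited to a cell type, were not given in the sources used here. The labels number the replicates without saying that each is a separate mouse, so p-values measure the spread between these samples, which may be technical.

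A level below is log2 of a probe's processed signal relative to the 75th percentile of its array, so 0 is the 75th percentile and 1 unit is a doubling. The 75th percentile lay between 453.6 and 758.5 signal units, and 58.7% to 63.6% of spots per array were well above background. The hepatocyte markers (12 of 12, among them Alb and Apoa1) were above background on all 12 arrays. Along the first principal component of all tested genes, which held 55.3% of the variance, 4 vehicle arrays stood apart: KO vehicle 1 and 3 and WT vehicle 2 and 3 lay between 74.1 and 88.1, and the other 8 arrays between -57.3 and -11.3. Pancreas markers had a median 3.31 log2 units above their 12-array mean in WT vehicle 1, and small intestine markers 4.61 in WT vehicle 2 and 2.26 in WT vehicle 1. These facts touch every result with vehicle arrays below.

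NF-kappaB dimers act through kappaB sites, many of them known from DNA just upstream of such target genes. A window from 250 bases before to 50 bases after the annotated start was found for 28 of the 39 members (RefSeq, build GRCm38.p6). On either strand, 11 of these 28 (39.3%) held a match to the 10-base kappaB consensus, against 5.14% of 27025 genes in the same table. With the looser motif GGGNNNNNCC, which takes in every match to the consensus, 23 of 28 members (82.1%) and 53.5% of all genes had a match. The 11 members with a consensus match were Bcl3, Casp4, Cxcl1, Cxcl2, Il1r1, Il6, Nfkb2, Nfkbia, Nfkbie, Nlrp3 and Tnfaip3. Cxcl1, Cxcl2 and Nfkbia shared the 10 bases GGGAATTTCC, and Casp4 and Tnfaip3 shared GGGGATTTCC. The 4 windows below are shown because their genes had the smallest unadjusted p among the described members with a match. They run 5′ to 3′ on the strand of the gene, with each match in capitals, and overlapping matches appear as 1 run.
Il6, chr5:30012864-30013163, + strand: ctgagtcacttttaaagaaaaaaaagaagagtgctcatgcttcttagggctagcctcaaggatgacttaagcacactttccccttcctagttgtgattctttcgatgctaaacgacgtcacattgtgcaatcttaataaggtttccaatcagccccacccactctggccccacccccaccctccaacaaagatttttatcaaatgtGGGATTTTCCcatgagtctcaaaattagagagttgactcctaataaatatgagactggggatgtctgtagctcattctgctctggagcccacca
Il1r1, chr1:40266336-40266635, + strand: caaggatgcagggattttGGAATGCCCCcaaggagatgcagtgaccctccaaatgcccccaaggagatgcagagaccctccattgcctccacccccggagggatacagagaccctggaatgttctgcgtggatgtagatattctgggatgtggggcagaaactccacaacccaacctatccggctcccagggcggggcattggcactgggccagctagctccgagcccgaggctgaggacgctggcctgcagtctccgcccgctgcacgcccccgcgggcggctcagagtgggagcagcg
Tnfaip3, chr10:19015361-19015660, - strand: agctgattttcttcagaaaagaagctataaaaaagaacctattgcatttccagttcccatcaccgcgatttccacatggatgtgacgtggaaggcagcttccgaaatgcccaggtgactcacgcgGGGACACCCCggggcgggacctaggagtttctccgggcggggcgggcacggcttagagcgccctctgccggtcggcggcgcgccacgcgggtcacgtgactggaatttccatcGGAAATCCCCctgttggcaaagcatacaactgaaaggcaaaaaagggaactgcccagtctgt
Nfkb2, chr19:46304487-46304786, + strand: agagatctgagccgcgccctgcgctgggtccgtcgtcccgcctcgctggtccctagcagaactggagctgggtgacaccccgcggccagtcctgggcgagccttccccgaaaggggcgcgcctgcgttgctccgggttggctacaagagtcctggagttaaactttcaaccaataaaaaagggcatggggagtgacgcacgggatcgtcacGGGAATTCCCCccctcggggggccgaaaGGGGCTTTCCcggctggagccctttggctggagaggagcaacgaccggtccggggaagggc
In Il6 the match GGGATTTTCC begins 44 bases before the start, and in Il1r1 the match lies on the opposite strand and begins 232 bases before it. Tnfaip3 has matches that begin 125 and 12 bases before the start, the second on the opposite strand. This Nfkb2 window, at 1 of the gene's annotated starts, has a pair of overlapping matches that begin 39 and 38 bases before the start and another that begins 11 bases before it. A match is a description of letters and not a measured binding site.

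In wild-type livers, most members had lower mean levels with IIAEK than with vehicle, and the 5 chemokine genes Ccl2, Ccl3, Ccl4, Ccl7 and Cxcl1 had the most negative differences, between -3.17 and -2.52 on the log2 scale. Ccl3 in WT IIAEK 1 and Ccl7 in WT IIAEK 2 were not above background, so the sizes of their differences rest partly on such values. No single member passed the test: limma called 0 of 35 members at an adjusted p under 0.05, against 0.00379% of all tested genes. The member median was -0.92, beside 0.03 over all genes, and 29 of 35 members had a difference below 0, beside 46.3% of all genes. At an unadjusted p under 0.05, 20 of 35 members (57.1%) were lower and 0 were higher, where 6.81% of all genes were lower and 5.75% higher. Cd40, among the 20, had all 3 arrays above background only in the vehicle groups. Its place in counts of lower members is therefore no support for a difference. For 10 of 35 members (28.6%) the 3 WT IIAEK arrays all lay below the 3 WT vehicle arrays, where 5.85% of all genes did so, and for 0 members they all lay above, where 7.08% of all genes did. The smallest adjusted p of a member was 0.395.

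In knockout livers most members also had lower mean levels with IIAEK than with vehicle, with a median nearer 0 than in wild type. The member median was -0.63, beside 0.05 over all genes, and 31 of 35 members had a difference below 0, beside 43.9%. Il6, Nlrp3 and Cd40, among the 31, entered the test only through vehicle groups, so their place there is no support for a difference. Negative medians in both genotypes were not particular to the members, as lists of Kupffer cell, neutrophil and monocyte, and stellate cell markers below had them too. Limma called 0 of 35 members, and 0% of all tested genes. At an unadjusted p under 0.05, 3 members were lower (Il6, Il1a and Nfkbia, 8.57%) and 0 higher, where 2.45% of all genes were lower and 4.01% higher. Il6 entered the test only through KO vehicle, the group where all 3 of its arrays were above background, so its place in this count and in the next is no support for a difference. For 5 members (14.3%) all KO IIAEK arrays lay below all KO vehicle arrays, where 5.91% of all genes did so, and for 0 members they all lay above, where 9.53% of all genes did. In both genotypes 28 of 35 members (80%) had a lower mean with IIAEK, beside 33.7% of all genes. These comparisons share no array, but both vehicle groups hold arrays that stood apart in the same direction. The agreement between genotypes is therefore not separate evidence. Il18, Cxcl13 and Socs1 had a higher mean with IIAEK in both, and Il6, Socs3, Nlrp3 and the brighter probe of Tnf had opposite signs, while the dimmer Tnf probe was lower in both.

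**Figure D1:**
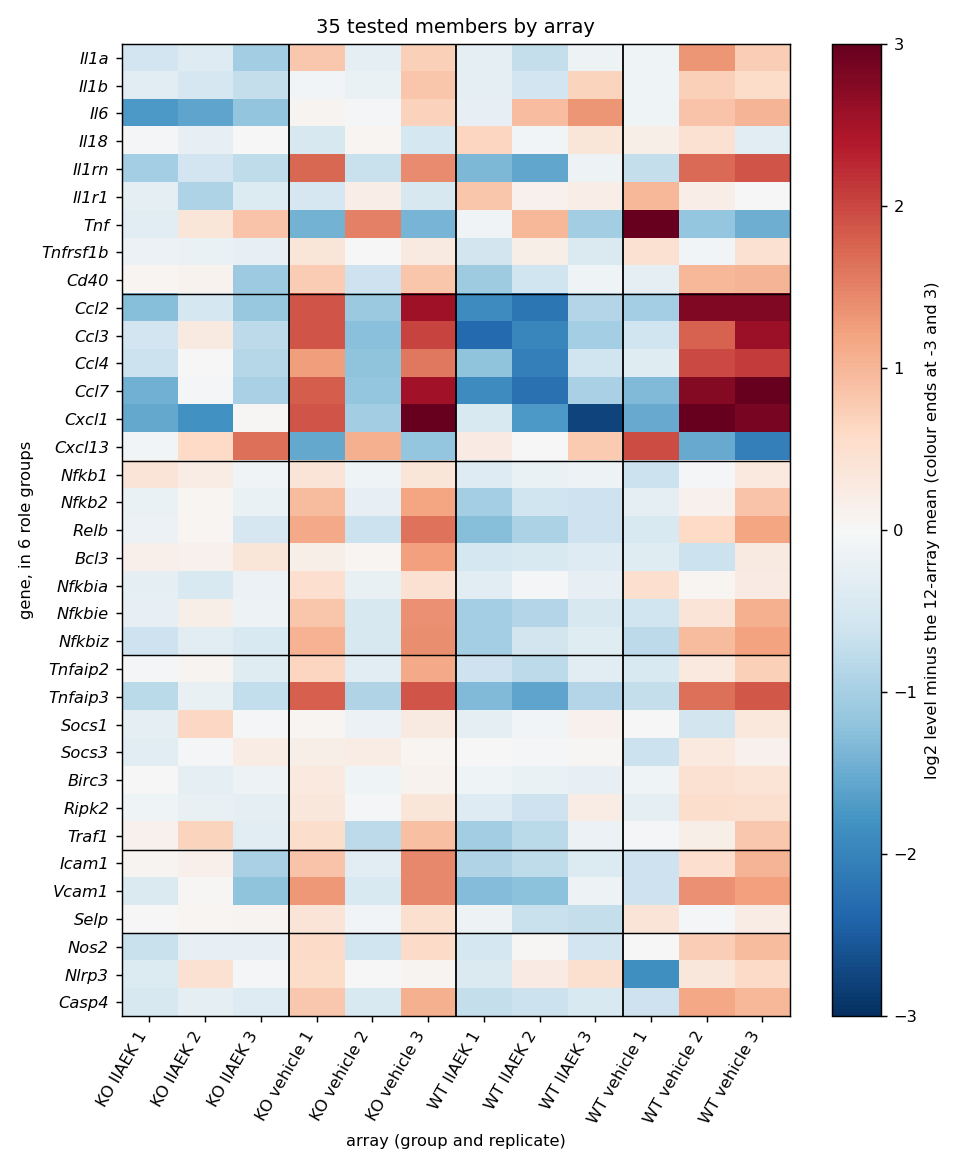
Levels of the 35 tested members (rows, ordered by role) on the 12 arrays (columns, by group and replicate), coloured by log2 level minus the gene's 12-array mean, with colours ending at -3 and 3. KO vehicle 1 and 3 and WT vehicle 2 and 3 are the 4 highest arrays for 20 members, and KO vehicle 2 and WT vehicle 1 look like the IIAEK arrays for the chemokines.

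**Figure D2:**
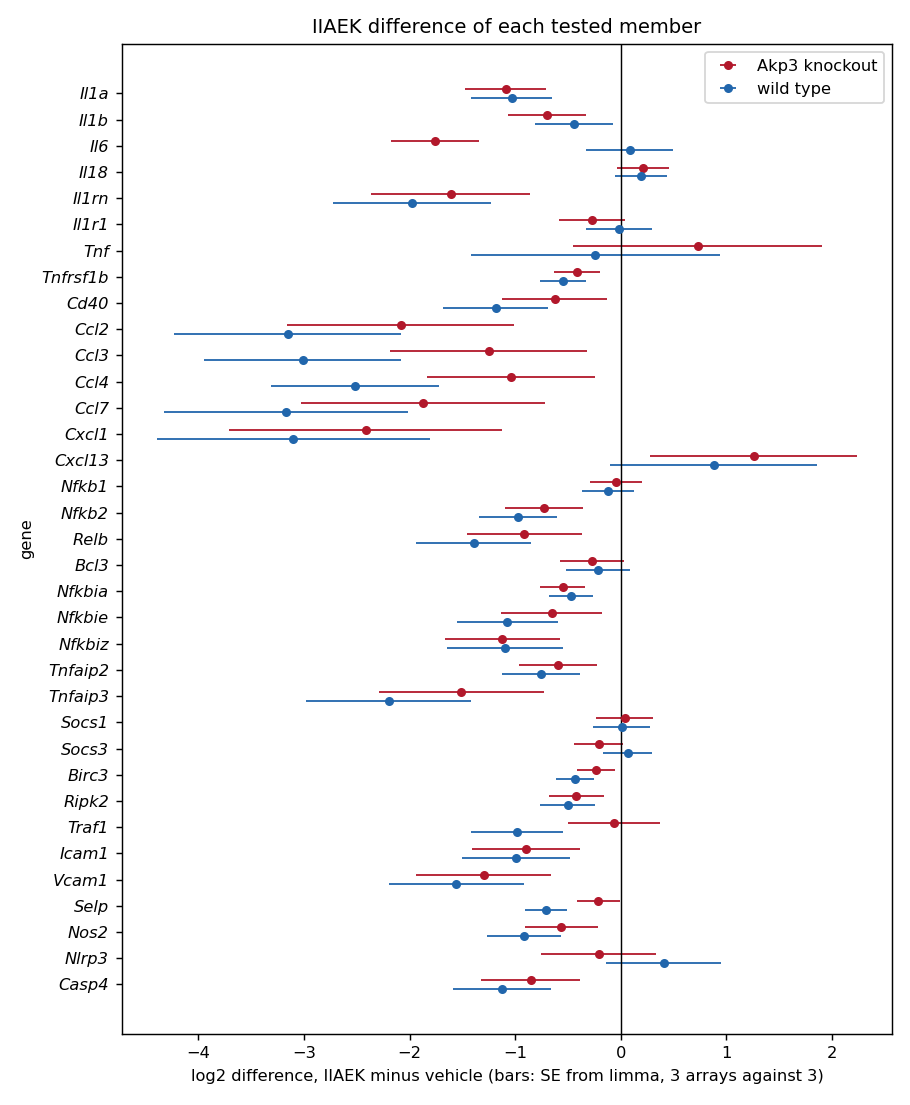
Log2 difference between IIAEK and vehicle arrays (x axis) for each tested member (y axis) in Akp3 knockout and wild-type livers, with SE from limma as bars (3 arrays against 3). Points lie left of 0 for 31 of 35 members in knockout and 29 of 35 in wild type, and the knockout point of Il6 rests on 3 KO IIAEK arrays that were not above background.

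The 4 vehicle arrays that stood apart were the 4 highest of all 12 for 20 of 35 members (57.1%), beside 10.6% of all tested genes, and the 4 lowest for 2 members, Tnf and Cxcl13 (5.71%, beside 12.2%). Cd40, among the 20, entered the test only through the vehicle groups, which hold these 4 arrays. Without these 4 arrays, which leaves 1 vehicle array per genotype, the member median of the IIAEK difference was -0.27 in wild type, with 26 of 35 members below 0. In knockout livers it was 0.067, with 15 of 35 below 0, and the differences of Ccl3 (0.89), Ccl4 (0.70), Nfkb2 (0.15), Tnfaip3 (0.31), Selp (0.13), Nos2 (0.21) and Casp4 (0.067) then lay above 0. Without them Casp4 in wild type was at 0.012. With slide 1 alone, 1 array per group, the medians were -0.79 in knockout and -0.41 in wild type, and with slide 2 alone they were -0.53 and -1.05. In wild type, leaving out the vehicle array that did not stand apart (WT vehicle 1) gave 15 of 35 members with an adjusted p under 0.05, all lower, along with 14.8% of all genes. They were Il1a, Il1rn, Ccl2, Ccl3, Ccl4, Ccl7, Cxcl1, Relb, Nfkbie, Nfkbiz, Tnfaip3, Birc3, Vcam1, Nos2 and Casp4. In knockout, down-weighting arrays that fit their group poorly gave 8 members (Il1a, Il6, Il1rn, Ccl2, Nfkbia, Nfkbiz, Tnfaip3 and Casp4) along with 3.3% of all genes. Il6, among these 8, entered the test only through KO vehicle, so its place there is no support for a difference.

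Markers of some other cells moved with the same arrays. The tested neutrophil and monocyte markers (11 of 15, S100a8 and Csf3r in the list) had medians of 1.28 to 1.89 log2 units above their 12-array mean on the 4 arrays that stood apart, and of -1.05 to 0.061 on the other 8. Their summed level, which the brightest genes set, did not follow this: it ran from 94.6 to 98.7 times the 75th percentile in KO IIAEK, 89.6 to 94.0 in KO vehicle, 97.0 to 116.0 in WT IIAEK and 102 to 122 in WT vehicle. The Kupffer cell and macrophage markers (14 of 14) had medians of 0.50 to 0.80 on the same 4 arrays and of -0.87 to 0.30 on the others. Their summed level ran from 104 to 185 in KO IIAEK, 140 to 332 in KO vehicle, 110 to 229 in WT IIAEK and 138 to 388 in WT vehicle. Stellate cell markers (13 of 13) had medians of 0.59 to 0.72 on the 4 arrays and of -0.63 to 0.49 on the others. The median IIAEK differences of these lists were also below 0. In knockout they were -0.64 for neutrophil and monocyte markers (8 of 11 below 0), -0.59 for Kupffer cell and macrophage markers (14 of 14) and -0.44 for stellate cell markers (12 of 13). In wild type they were, in the same order, -1.55 (8 of 11), -0.65 (12 of 14) and -0.66 (13 of 13). The 7 tested bile duct markers (Krt19 and Epcam in the list) had medians of 0.74 to 1.22 on the 4 arrays and of -0.74 to -0.25 on the others, without overlap. Their summed level ran from 7.69 to 8.55 in KO IIAEK, 7.93 to 21.9 in KO vehicle, 7.05 to 8.46 in WT IIAEK and 6.37 to 44.7 in WT vehicle. All 7 had a lower mean with IIAEK in both genotypes, with medians of -0.90 in knockout and -0.93 in wild type. Hepatocyte markers had the opposite sign: 12 of 12 had a higher mean with IIAEK in knockout and 11 of 12 in wild type, with medians of 0.25 and 0.17. Their medians were -0.43 to -0.083 on the 4 arrays and -0.10 to 0.42 on the others. None of these bile duct or hepatocyte markers was called by limma. Of bile duct markers, 2 in knockout (28.6%) and 3 in wild type (42.9%) were lower at an unadjusted p under 0.05. The shares of all genes were 2.45% and 6.81%. Liver endothelial markers (14 of 14) stayed between -0.41 and 0.21 on all 12. The tested T, NK and B cell markers had medians of -0.23 to 0.69 on the 4 arrays and of -0.55 to 0.47 on the others. For red cell markers they were 0.51 to 0.85 and -1.10 to 1.06, so neither list was free of overlap. The part of these cells in the member differences was not tested, and in bulk tissue fewer cells of a type and less RNA per cell cannot be told apart.

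**Figure D3:**
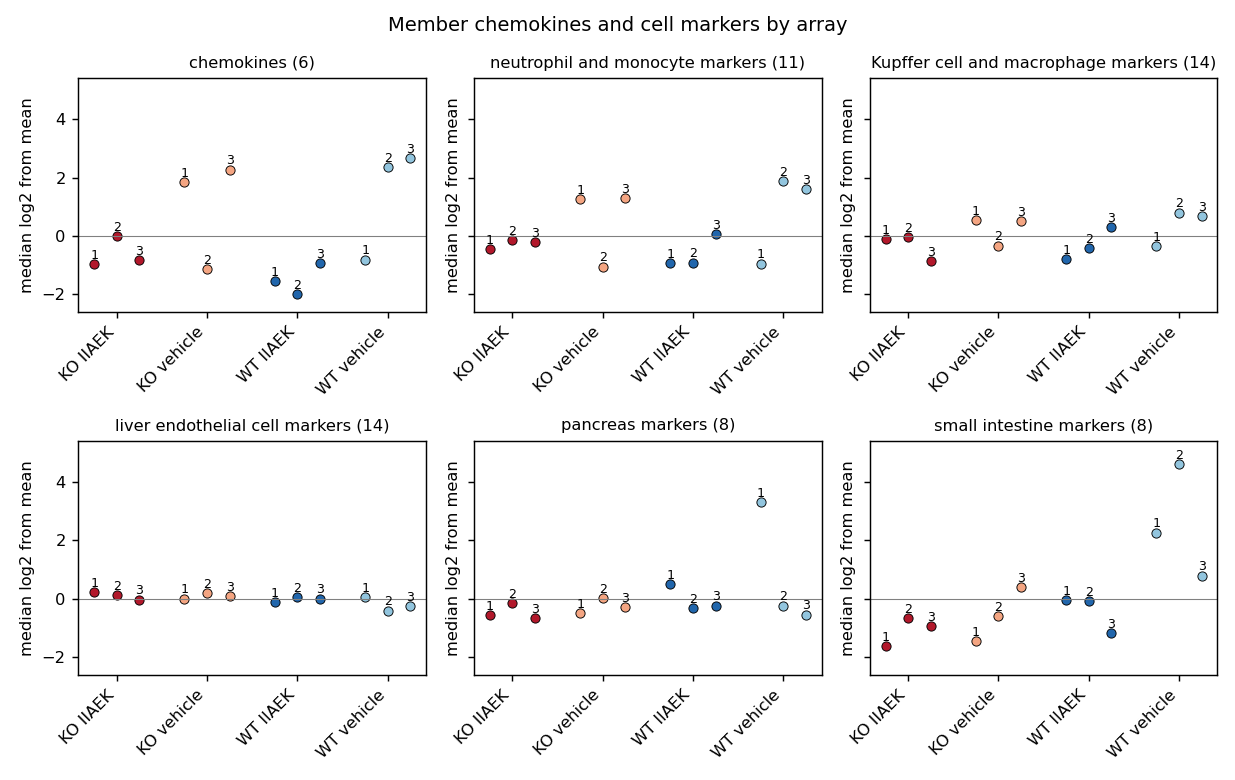
Median log2 level relative to the 12-array mean (y axis) of the tested member chemokines and of 5 marker lists, with the number of genes in brackets, per array (points, numbered by replicate) in the 4 groups. KO vehicle 1 and 3 and WT vehicle 2 and 3 are high for chemokines and for neutrophil and monocyte markers, while endothelial markers stay between -0.41 and 0.21.

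The chemokines recruit leukocytes: Ccl2 and Ccl7 attract monocytes, Ccl3 and Ccl4 attract monocytes and T cells, Cxcl1 and Cxcl2 attract neutrophils, and Cxcl13 attracts B cells. As a group they had a median IIAEK difference of -1.56 in knockout and -3.06 in wild type, with 5 of 6 tested genes below 0 in each. None was called by limma. Lower at an unadjusted p under 0.05 were 0 in knockout (0%) and 5 in wild type (83.3%), beside 2.45% and 6.81% of all genes. Ccl3 had levels of -3.69, -2.86 and -3.92 in KO IIAEK livers, against -1.25, -4.38 and -1.1 in KO vehicle livers. In wild type its levels were -5.47, -5.09 and -4.14 with IIAEK, against -3.72, -1.36 and -0.57 with vehicle. The level of -5.47 was not above background, so the size of the wild-type difference rests partly on it. Its difference was -1.25 (SE 0.93) in knockout, where KO vehicle 2 was the lowest of the 6 arrays, and -3.01 (SE 0.93, limma adjusted p = 0.395) in wild type, where the groups did not overlap.

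Ccl4, coded beside Ccl3, had levels of -2.93, -2.25 and -3.14 in KO IIAEK livers, against -1.03, -3.48 and -0.70 in KO vehicle livers. The wild-type levels were -3.49, -4.32 and -2.87 with IIAEK and -2.64, -0.30 and -0.18 with vehicle. The groups overlapped in knockout (-1.04, SE 0.79) and not in wild type (-2.52, SE 0.79, limma adjusted p = 0.395), where WT vehicle 1 lay close to the IIAEK arrays. Ccl2 and Cxcl1, picked after their values were seen, showed the same split of the vehicle arrays. Ccl2 had levels of -0.44, 0.30 and -0.30 in KO IIAEK, against 2.72, -0.28 and 3.36 in KO vehicle livers, and -1.06, -1.34 and -0.047 in WT IIAEK, against -0.19, 3.62 and 3.6 in WT vehicle livers. Cxcl1 had -0.64, -0.93 and 0.93 in KO IIAEK, against 2.79, -0.14 and 3.96 in KO vehicle livers, and 0.43, -0.83 and -1.89 in WT IIAEK, against -0.61, 3.9 and 3.74 in WT vehicle livers. For both genes the vehicle arrays fell into a high pair and 1 low array in each genotype, and the low array was within the range of the IIAEK arrays of its genotype.

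Cxcl2, whose window holds the same 10-base site as Cxcl1, was above background on 4 of 12 arrays, the 4 that stood apart, and was not tested. Its mean level was -5.95 in KO IIAEK and -4.45 in KO vehicle livers, and -7.04 in WT IIAEK and -4.21 in WT vehicle livers. No IIAEK array was above background, and neither were KO vehicle 2 (-6.78) and WT vehicle 1 (-5.95), so no fold is given. In knockout the groups overlapped, as KO vehicle 2 lay below the KO IIAEK arrays (-5.64, -6.36 and -5.83). Cxcl13 ran the other way. Its levels were -2.81, -2.12 and -1.06 in KO IIAEK, against -4.25, -1.66 and -3.87 in KO vehicle livers, and -2.48, -2.71 and -1.93 in WT IIAEK, against -0.76, -4.24 and -4.77 in WT vehicle livers. The 4 lowest of these were the same 4 vehicle arrays that were highest for Ccl2, and the differences of 1.26 (SE 0.98) in knockout and 0.88 (SE 0.98) in wild type did not pass the test.

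**Figure D4:**
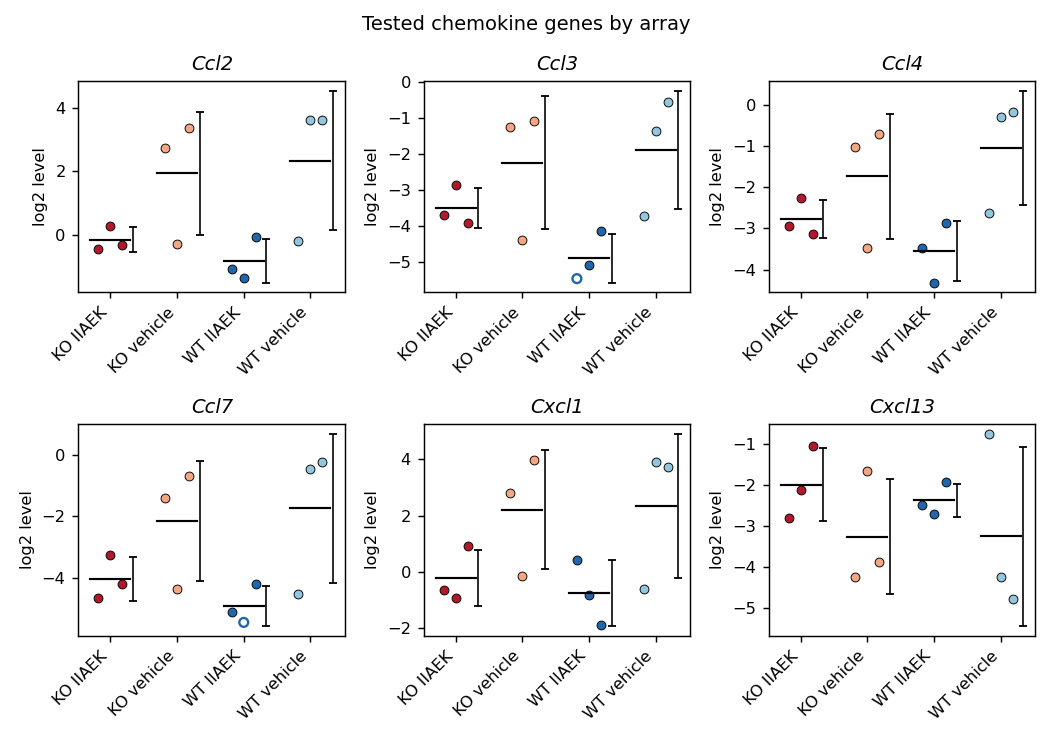
Log2 level relative to the array's 75th percentile (y axis) of the 6 tested chemokine genes on each array (points) in the 4 groups, with the mean (line) and SD (bar, n = 3), and open circles where the probe was not well above background. The vehicle groups hold a high pair and 1 low array for Ccl2, Ccl3, Ccl4, Ccl7 and Cxcl1, and a low pair and 1 high array for Cxcl13.

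The NF-kappaB subunits and inhibitors had a median IIAEK difference of -0.65 in knockout and -0.97 in wild type, and 7 of 7 had a difference below 0 in each. None was called. In knockout 1 (14.3%) and in wild type 4 (57.1%) were lower at an unadjusted p under 0.05, beside 2.45% and 6.81% of all genes. Nfkb2 encodes the precursor of a subunit of the non-canonical branch, in which it pairs with Relb. It had levels of 0.36, 0.62 and 0.35 in KO IIAEK livers, against 1.5, 0.30 and 1.72 in KO vehicle livers. In wild type it had -0.46, -0.049 and -0.073 with IIAEK, against 0.26, 0.69 and 1.4 with vehicle, a gap without overlap. The difference was -0.73 (SE 0.37) in knockout, with KO vehicle 2 the lowest of its 6 arrays, and -0.97 (SE 0.37, limma adjusted p = 0.395) in wild type. Relb, its partner, had a difference of -0.91 (SE 0.55) in knockout and -1.39 (SE 0.55) in wild type.

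Nfkbia, the IkappaB alpha gene and a classical direct target, had levels of 3.93, 3.76 and 4.05 in KO IIAEK livers, against 4.72, 4.0 and 4.68 in KO vehicle livers. Its wild-type levels were 3.9, 4.19 and 3.99 with IIAEK, against 4.74, 4.28 and 4.47 with vehicle. Here WT vehicle 1, low for the chemokines, was the highest of the 12 arrays, and the wild-type groups did not overlap. The difference was -0.55 (SE 0.21, limma adjusted p = 0.656) in knockout and -0.47 (SE 0.21, limma adjusted p = 0.397) in wild type. Without the arrays that stood apart they were -0.081 and -0.72. The other IkappaB genes, Nfkbie and Nfkbiz, had differences of -0.65 and -1.12 in knockout and of -1.07 and -1.1 in wild type, while Nfkb1, the gene of the canonical precursor, had -0.042 in knockout and -0.12 in wild type. A dimmer Nfkbiz probe, above background on all 12 arrays, had -0.30 in knockout and -1.03 in wild type. The size of the knockout difference of Nfkbiz thus depended on the probe.

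Of the feedback and signalling genes, 6 of 7 in knockout and 5 of 7 in wild type had a difference below 0, with medians of -0.23 and -0.50. None was called. Lower at an unadjusted p under 0.05 were 0 in knockout (0%) and 3 in wild type (42.9%), beside 2.45% and 6.81% of all genes. Tnfaip3, which removes ubiquitin chains that carry the signal, had levels of -0.91, -0.31 and -0.82 in KO IIAEK livers, against 1.7, -0.99 and 1.79 in KO vehicle livers. In wild type the levels were -1.43, -1.68 and -0.97 with IIAEK and -0.81, 1.55 and 1.78 with vehicle. The groups overlapped in knockout (-1.51, SE 0.78) through KO vehicle 2, and did not in wild type (-2.2, SE 0.78, limma adjusted p = 0.395). Birc3, a ubiquitin ligase that limits cell death, had levels of -1.75, -2.05 and -1.91 in KO IIAEK, against -1.48, -1.89 and -1.65 in KO vehicle livers, and -1.89, -1.95 and -2.01 in WT IIAEK, against -1.89, -1.31 and -1.35 in WT vehicle livers. Its wild-type groups touched at -1.89 without overlap, and its differences were -0.23 (SE 0.18) in knockout and -0.43 (SE 0.18) in wild type. Traf1, an adaptor of TNF family receptors, had -2.52, -1.99 and -2.99 in KO IIAEK, against -2.13, -3.43 and -1.75 in KO vehicle livers, and -3.7, -3.46 and -2.84 in WT IIAEK, against -2.72, -2.48 and -1.84 in WT vehicle livers. Its groups overlapped in knockout (-0.065) and not in wild type (-0.99), and the difference between these responses, 0.92 (SE 0.62), had a limma adjusted p of 1.0. Socs1 and Socs3, inhibitors of cytokine receptor signalling, had differences of 0.038 and -0.21 in knockout and of 0.0079 and 0.066 in wild type. Tnfaip2 had -0.59 in knockout and -0.76 in wild type, and Ripk2, the kinase downstream of the NOD receptors, -0.42 and -0.50.

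Among the adhesion genes, Vcam1 and Icam1 encode endothelial ligands for leukocyte integrins, and Selp encodes P-selectin, on which leukocytes roll. All 3 tested had differences below 0 in both genotypes, with medians of -0.89 in knockout and -0.99 in wild type. None was called. In knockout 0 (0%) and in wild type 2 (66.7%) were lower at an unadjusted p under 0.05, beside 2.45% and 6.81% of all genes. Vcam1 had levels of 2.41, 2.9 and 1.65 in KO IIAEK livers, against 4.17, 2.4 and 4.29 in KO vehicle livers, and 1.56, 1.62 and 2.71 in WT IIAEK livers, against 2.24, 4.24 and 4.09 in WT vehicle livers. The 4 arrays that stood apart were all above 4 and the other 8 all below 3, and the groups overlapped in both genotypes (-1.3, SE 0.64, in knockout and -1.56, SE 0.64, in wild type). Selp had the smallest unadjusted p of all members in the wild-type comparison (0.00502). Its levels were -3.0, -2.93 and -2.93 in KO IIAEK, against -2.62, -3.09 and -2.52 in KO vehicle livers, and -3.16, -3.67 and -3.71 in WT IIAEK, against -2.61, -3.03 and -2.78 in WT vehicle livers. In wild type the groups did not overlap and the highest array was WT vehicle 1, and the difference was -0.71 (SE 0.20, limma adjusted p = 0.395). Without the arrays that stood apart it was -0.91. In knockout it was -0.21 (SE 0.20) with overlap. Dimmer Selp probes, above background on 3 and 7 of 12 arrays, had differences of -1.69 and -0.86 in knockout and of -1.28 and -1.31 in wild type. The size of the knockout difference thus depended on the probe. Icam1 had differences of -0.89 (SE 0.51) in knockout and -0.99 (SE 0.51) in wild type. Sele, the gene of E-selectin, was above background on 2 of 12 arrays and was not tested.

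Of the enzyme and inflammasome genes, Nos2 encodes inducible nitric oxide synthase and Casp4 the mouse inflammatory caspase that senses cytosolic lipopolysaccharide. Nos2 had levels of -2.68, -2.27 and -2.26 in KO IIAEK livers, against -1.46, -2.62 and -1.45 in KO vehicle livers, and -2.54, -1.99 and -2.59 in WT IIAEK livers, against -2.02, -1.29 and -1.06 in WT vehicle livers. Casp4 had -0.30, -0.090 and -0.22 in KO IIAEK, against 0.97, -0.27 and 1.24 in KO vehicle livers, and -0.54, -0.47 and -0.29 in WT IIAEK, against -0.45, 1.35 and 1.17 in WT vehicle livers. Both genes were highest on the 4 arrays that stood apart, and the groups overlapped in both genotypes. The differences of Nos2 were -0.56 (SE 0.35) in knockout and -0.92 (SE 0.35) in wild type, and those of Casp4 were -0.85 (SE 0.47) and -1.12 (SE 0.47). Nlrp3, a sensor of the inflammasome, entered the test only through KO vehicle and had -0.21 in knockout and 0.41 in wild type. None of the 3 tested genes was called. Lower at an unadjusted p under 0.05 were 0 in knockout (0%) and 2 in wild type (66.7%), beside 2.45% and 6.81% of all genes. Ptgs2, the inducible cyclooxygenase gene, was above background on 3 of 12 arrays and was not tested.

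Of the cytokines and receptors, 7 of 9 tested genes were below 0 in each genotype, with medians of -0.63 in knockout and -0.44 in wild type. None was called. Lower at an unadjusted p under 0.05 were 2 in knockout (22.2%) and 4 in wild type (44.4%), beside 2.45% and 6.81% of all genes. The 2 in knockout include Il6, which entered the test only through KO vehicle. The 4 in wild type include Cd40, which entered only through the vehicle groups. The place of either gene in these counts is no support for a difference. Il1a, which encodes an IL-1 cytokine released by damaged cells, had levels of -3.48, -3.3 and -3.97 in KO IIAEK livers, against -2.12, -3.18 and -2.19 in KO vehicle livers. Its wild-type levels were -3.22, -3.64 and -3.08 with IIAEK, against -3.05, -1.6 and -2.18 with vehicle. The groups did not overlap in either genotype, and the differences were -1.09 (SE 0.38, limma adjusted p = 0.656) in knockout and -1.03 (SE 0.38, limma adjusted p = 0.395) in wild type. Without the arrays that stood apart they were -0.40 and -0.26. Il1rn, the IL-1 receptor antagonist, had differences of -1.61 (SE 0.75) in knockout and -1.98 (SE 0.75) in wild type, and Il1b, the other IL-1 cytokine, -0.70 and -0.44. The receptor genes Tnfrsf1b, for TNF, and Cd40, for a costimulatory ligand of T cells, had -0.42 and -0.63 in knockout and -0.54 and -1.19 in wild type. Il10, an anti-inflammatory cytokine gene, was above background on 0 of 12 arrays and was not tested.

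Tnf, the gene of the cytokine that gives the TNF pathway its name, had a pair of probes that disagreed. The brighter probe, used here, had levels of -1.76, -1.05 and -0.56 in KO IIAEK, against -2.84, 0.095 and -2.81 in KO vehicle livers, and -1.51, -0.41 and -2.46 in WT IIAEK, against 1.79, -2.57 and -2.88 in WT vehicle livers. The dimmer probe, above background on 10 of 12 arrays, had -4.34, -4.05 and -4.66 in KO IIAEK, against -3.35, -5.14 and -2.69 in KO vehicle livers, and -5.57, -5.88 and -4.79 in WT IIAEK, against -4.1, -3.31 and -2.7 in WT vehicle livers. The 4 arrays that stood apart were the 4 lowest on the brighter probe and the 4 highest on the dimmer one. The IIAEK differences were 0.73 in knockout and -0.24 in wild type on the brighter probe, and -0.62 and -2.05 on the dimmer one, so no direction is given for Tnf.

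The difference between the genotypes' responses to IIAEK was tested as a contrast of its own. Limma called 0 of 35 members and 0% of all genes. The median difference was 0.25, beside 0.02 over all genes, and 9 of 35 members were below 0, beside 45.9%. At an unadjusted p under 0.05, 1 member was lower (2.86%, beside 0.61% of all genes) and 0 were higher, beside 1%. The lower one was Il6, which was above background on 7 of 12 arrays and entered the test only through KO vehicle, so this count is no support for a difference. It encodes a cytokine that drives the hepatic acute phase response. Its levels were -7.38, -7.25 and -6.85 in KO IIAEK livers, all 3 not well above background, against -5.56, -5.69 and -4.95 in KO vehicle livers, all 3 above it. In wild type the levels were -5.9, -4.73 and -4.33 with IIAEK, against -5.79, -4.79 and -4.63 with vehicle, and replicate 1 of each group was not above background. Values below background give only an upper bound on the level, so the size of a log2 difference against them is not given. A dimmer Il6 probe was above background on 0 of 12 arrays. On the probe used, Il6 in knockout was at least 1.26-fold lower with IIAEK (limma adjusted p = 0.656). As Il6 entered the test only through KO vehicle, this bound is no support for a difference. A bound of this kind sets the arrays of the lower group, none above background, at the lowest signal called above background on each array. The wild-type groups overlapped, and the difference between the responses had a limma adjusted p of 1.0.

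Between knockout and wild-type livers under vehicle, no member passed the test. The member median was -0.04, beside -0.07 over all genes, and 22 of 35 members had a difference below 0, beside 59.1%. Limma called 0 members, against 0.00379% of all genes. At an unadjusted p under 0.05 1 member was higher, Bcl3 (2.86%, beside 2.55%), and 0 were lower, beside 4.33%. The genotypes were free of overlap in 0 members, beside 8.64% of all genes. With slide 1 alone the median was 1.02 and with slide 2 alone -0.40, and the low vehicle array lies on slide 1 in wild type (WT vehicle 1) and on slide 2 in knockout (KO vehicle 2).

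Under IIAEK, where no array stood apart, the member median of knockout minus wild type was 0.34, beside -0.02 over all genes, and 9 of 35 members were below 0, beside 52.9%. Limma called 0 members, against 0.00758% of all genes. The SE of a gene comes from all groups, so here it also carries the spread of the vehicle arrays, which were not compared. At an unadjusted p under 0.05 Selp and Bcl3 were higher (5.71%, beside 3.35%) and Il6 and Il1r1 were lower (5.71%, beside 4.53%). The groups did not overlap for 10 members (28.6%), a share near the 27.8% of all genes. These genotype comparisons share their arrays with the IIAEK comparisons above, so their values are not independent of them.

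Bcl3, an atypical IkappaB protein that works in the nucleus, had levels of 3.05, 3.03 and 3.27 in KO IIAEK livers, against 2.38, 2.44 and 2.51 in WT IIAEK livers, without overlap. With vehicle it had 3.08, 2.97 and 4.12 in KO livers, against 2.54, 2.27 and 3.16 in WT livers, with overlap. The genotype difference was 0.67 (SE 0.30, limma adjusted p = 0.625) under IIAEK and 0.73 (SE 0.30, limma adjusted p = 0.710) under vehicle. Il1r1, the signalling receptor for IL-1, had levels of 2.37, 1.72 and 2.23 in KO IIAEK livers, against 3.47, 2.76 and 2.85 in WT IIAEK livers, without overlap. With vehicle it had 2.14, 2.83 and 2.17 in KO livers, against 3.65, 2.83 and 2.66 in WT livers, with overlap. Its difference was -0.92 (SE 0.31, limma adjusted p = 0.625) under IIAEK and -0.66 (SE 0.31, limma adjusted p = 0.710) under vehicle.

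Il18, a cytokine gene that Kupffer cells express, had levels of 1.88, 1.68 and 1.92 in KO IIAEK, against 2.56, 1.85 and 2.28 in WT IIAEK livers, and 1.45, 2.0 and 1.41 in KO vehicle, against 2.1, 2.39 and 1.62 in WT vehicle livers. The groups overlapped in both, with differences of -0.40 (SE 0.25) under IIAEK and -0.42 (SE 0.25) under vehicle. Il6 had a lower mean in KO IIAEK livers, where no array was above background, than in WT IIAEK livers, where 2 of 3 were (limma adjusted p = 0.452). As the remaining WT IIAEK array was not above background, no fold is given. With arrays down-weighted by how poorly they fit their group, this limma adjusted p was 0.0237 (0.0237 to 0.989 over the alternatives), and 0.224% of all genes were called. For Selp the difference was 0.56 (SE 0.20, limma adjusted p = 0.625), with the 3 KO IIAEK arrays all above the 3 WT IIAEK arrays.

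**Figure D5:**
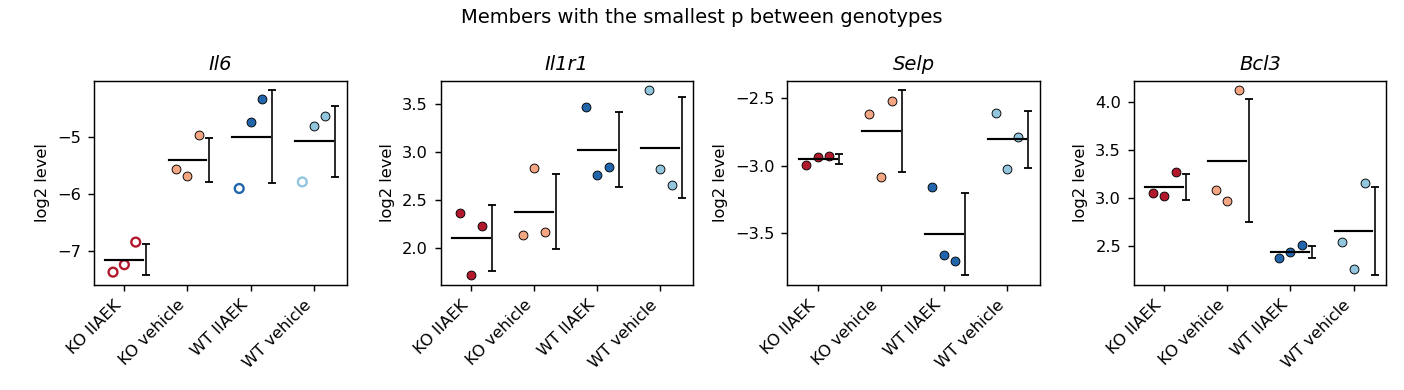
Log2 level relative to the array's 75th percentile (y axis) of Il6, Il1r1, Selp and Bcl3 on each array (points) in the 4 groups, with the mean (line) and SD (bar, n = 3), and open circles where the probe was not well above background. The KO IIAEK arrays lie below the WT IIAEK arrays for Il6 and Il1r1 and above them for Selp and Bcl3, with no KO IIAEK array above background for Il6.

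The rest of the pathway was followed in a list of 67 other genes (receptors, adaptors, kinases, further targets), of which 66 had a probe and 58 were tested. Csf2 and Csf3, colony-stimulating factor genes, were above background on 0 of 12 arrays. Limma called none of the 58 in either IIAEK comparison, whose medians were -0.11 in knockout and -0.12 in wild type. At an unadjusted p under 0.05, 3 were lower and 0 higher in knockout, and 11 were lower and 1 higher in wild type. As shares these were 5.17% and 0% in knockout, beside 2.45% and 4.01% of all genes, and 19.0% and 1.72% in wild type, beside 6.81% and 5.75%. The smallest p in knockout belonged to Rel (-0.64, SE 0.26), a subunit gene, Cd86 (-1.06, SE 0.48), a costimulatory ligand, and Junb (-0.44, SE 0.20), an AP-1 subunit, among lower genes. Among higher ones they belonged to Ltbr (0.32, SE 0.17), the lymphotoxin beta receptor, Cyld (0.24, SE 0.14), a deubiquitinase, and Tradd (0.23, SE 0.15), a TNF receptor adaptor.

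In wild type, the lower genes with the smallest p were Irak3 (-1.49, SE 0.44), an inhibitor of Toll-like receptor signalling, Tlr2 (-1.82, SE 0.55), a Toll-like receptor, and Cxcl5, a neutrophil chemokine. No WT IIAEK array of Cxcl5 was above background, so it entered the test only through other groups. Its place here and in the count above is therefore no support for a difference, nor is its bound of at least 6.62-fold lower. The higher genes with the smallest p in wild type were Tab2 (0.62, SE 0.25), Irak1 (0.31, SE 0.15) and Chuk (0.46, SE 0.22). They encode an adaptor and kinases that carry the signal to the IkappaB proteins. Between genotypes, limma called 0 of the 58 under either condition, and 2 under IIAEK (3.45%) and 1 under vehicle (1.72%), all higher, had an unadjusted p under 0.05. These shares are near the 3.35% and 2.55% of all genes. Tnfrsf1a, the main TNF receptor gene, averaged 3.48 ± 0.10 in KO IIAEK livers and 3.09 ± 0.20 in WT IIAEK livers (SD, n = 3 each), and 3.59 ± 0.094 in KO vehicle and 3.14 ± 0.26 in WT vehicle livers (SD, n = 3 each). Its difference was 0.39 (SE 0.16) under IIAEK and 0.44 (SE 0.16) under vehicle. The other named genes under IIAEK were Ikbkb (0.51), a kinase of the IkappaB proteins, Xiap (-0.28) and Ikbkg (-0.22), and under vehicle F3 (0.58), Saa3 (-1.35) and Il6ra (-0.51).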

How the data were processed

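The scanner images were quantified in Feature Extraction 10.7.3.1 (Agilent), per the file headers. The deposited processed signal is an intensity per spot after background subtraction by that software. The deposited series table of the authors holds log2 values, which were not used for the results. Non-uniform spots were left out of 59305 non-control spots, the spots of a probe were averaged (56605 probes), and log2 of the signal minus the 75th percentile of each array was taken. Symbols came from a RefSeq table (GRCm38.p6), while the headers name mm9. The brightest probe stood for a gene. Genes entered the test if some group had all 3 arrays well above background. Limma 3.58.1 in R 4.3.3 was fitted to all 12 arrays with 1 mean per group, and p-values, two-sided, were adjusted by Benjamini-Hochberg over 26397 tests with a threshold of 0.05. The fit was tested on simulated data. Replicate 1 of each group was on slide 1 and replicates 2 and 3 on slide 2, each with its own scan, so slide and scan cannot be told apart. The members, the lists and the rule for named genes (the smallest unadjusted p per role group and comparison where nothing passed) were chosen with earlier results of these data known. Same-numbered arrays deviated together in 8 of 18 pairs (correlation above 0.1), so numbers were not taken as pairs. Alternatives were another background correction and scaling, no filter on dim probes, the slide or replicate as a block, array weights and leaving out arrays. The number of arrays limits the precision.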

Additional observations from a re-analysis of the deposited data

How the results depend on the processing

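Across 28 alternatives, the 35 results on single members reversed in 20 cases, passed the threshold in 14 and were counted as the same in 923. The same means the same direction and side of the threshold. With slide 1 alone, which gives no p-value, it means a shift smaller than the gene's SD within groups. Results that shifted more there are in none of these counts. Many of the 923 could not reverse, as leaving out an array of a group not compared leaves the difference unchanged. With 1 array left out at a time, members called ran from 0 to 15 for IIAEK in wild type (15 without WT vehicle 1) and stayed at 0 in the other 4 comparisons. The member median then ran from -0.99 to -0.38 for IIAEK in knockout, from -1.17 to -0.68 for IIAEK in wild type, from -0.34 to 0.41 for knockout against wild type under vehicle, from 0.17 to 0.46 under IIAEK, and from -0.11 to 0.49 for the difference between responses. Il6 in wild type ran from -0.27 to 0.54, and Tnf from -1.07 to 1.26.

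With array weights, members called were 8 for IIAEK in knockout and 1 for knockout against wild type under IIAEK. Il6, which entered the test only through KO vehicle, was among the 8 and was the 1 between genotypes. Il6 in wild type was then -0.070 and Tnf 0.71. With slide 1 alone the member median was -0.41 for IIAEK in wild type, 1.02 for knockout against wild type under vehicle and -0.50 for the difference between responses, and with slide 2 alone Tnf in wild type was 1.29. With the 4 outlying vehicle arrays removed, the median was 0.067 for IIAEK in knockout and -0.27 in wild type. In knockout, Ccl3 was then 0.89, Ccl4 0.70, Nfkb2 0.15, Tnfaip3 0.31, Selp 0.13, Nos2 0.21, Casp4 0.067 and Tnf -1.22, and Casp4 in wild type was 0.012. Without WT vehicle 1 and 2, left out after seeing the data, the median of the difference between responses was 0.70, Il6 in wild type -0.36 and Tnf 1.42. The other Tnf probe, also taken after seeing the data, gave -0.62 in knockout. The looser motif was found in 23 members. With the replicate block, members called were 0 in all 5 comparisons, and the numbers do not pair the arrays. Over all genes, limma called 3909 for IIAEK in wild type without WT vehicle 1, and 871 for IIAEK in knockout with array weights. The cause of these shifts was not tested.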
